A study of Mus musculus with 8 samples.

Results

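Sca1, the antigen by which the progenitor cells of this study were sorted, is encoded by Ly6a, and Ly6a was followed here together with 6 other surface genes of progenitor cells: Ly6c1, Ly6e, Kit, Cd34, Thy1 and Eng. The 7 genes were chosen by name, not by their values, although earlier results of these data were known. They were taken from the 23483 genes of the deposited count table, where they held 20 of the 29614 transcript rows. The study asks what the lysine methyltransferase Set7, encoded by Setd7, does as mouse embryonic stem cells turn into smooth muscle. Poly(A)-selected RNA was sequenced in 8 libraries, 2 for each of 4 groups. All cells were of the strain C57BL/6, and all were labelled with a glucose concentration of 5.5 mM.

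The knock-down group held Sca1 cells with an shRNA against Set7, and the NTC group held Sca1 cells with a non-target shRNA. Both constructs were carried by lentivirus and both groups had been selected with puromycin. The untreated Sca1 group held Sca1 cells with no construct, and the mESC group held embryonic stem cells with no construct, the kind of culture from which Sca1 cells are derived. Per the labels' protocols, stem cells lost the factor LIF for 4 days on gelatin before Sca1-bearing cells were collected with magnetic beads, flow cytometry put purity above 80%, and the collected cells then grew without LIF for 2 to 8 doublings. The RNA therefore came from cultures grown on after the sort, not from freshly sorted cells. A single shRNA sequence is given for the knock-down, and nothing in the labels says whether the 2 libraries of a group came from separate cultures, so p-values measure only the spread between these libraries.

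Total gene counts came to 2790736 and 4406728 in the knock-down libraries, 4079756 and 4301485 in NTC, 3097411 and 2507938 in untreated Sca1, and 4288553 and 5080266 in mESC. Setd7 checked the labels: it stood at 14.0 and 10.8 CPM (gene counts scaled to library size, with TMM factors) in knock-down cells, 60.7 and 66.6 CPM in NTC, 76.3 and 66.3 CPM in untreated Sca1, and 11.2 and 16.5 CPM in mESC. The second libraries of untreated Sca1 and of mESC stood apart, since 1 ribosomal precursor row took 12.0% and 11.5% of their counts, against 0.403% to 1.62% in the other 6. These 2 libraries also share a number in their sample descriptions that no other library has, and comparisons within the shared numbers are given below as within-code values.

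Ly6a, Ly6c1 and Ly6e belong to the Ly6 family, small proteins with a folded disulphide core that a GPI lipid anchor holds on the outer face of the membrane. Thy1 is held in the same way and marks mesenchymal and haematopoietic progenitors, neurons and T cells. Kit is the receptor tyrosine kinase for stem cell factor, Cd34 is a sialomucin of blood and vascular progenitors, and Eng, endoglin, is a TGF-beta co-receptor of endothelial and mesenchymal cells. In vessel walls and in cultures derived from stem cells, Sca1, often with Kit or Cd34, has been used to collect cells that can become smooth muscle. Kit is also known as a gene of undifferentiated mouse embryonic stem cells.

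The sequences upstream of Kit and Eng are shown because these 2 genes fell together between stem cells and Sca1 cells. They come from RefSeq promoters on GRCm38.p6, which gave entries for 4 of the 7 genes (Ly6c1, Kit, Cd34 and Eng), and they are read on the + strand, at chr5:75574737-75574915 for Kit and chr2:32646345-32646594 for Eng. Capitals mark each match to any of 4 motifs, and no matches overlapped. The first motif searched on both strands was the GC box, spelled GGGCGG. The next was the E-box, spelled CANNTG, at which helix-loop-helix factors bind. The others were the core that GATA factors bind, which is spelled like their name, and the TATA box, spelled TATAAA.
Kit: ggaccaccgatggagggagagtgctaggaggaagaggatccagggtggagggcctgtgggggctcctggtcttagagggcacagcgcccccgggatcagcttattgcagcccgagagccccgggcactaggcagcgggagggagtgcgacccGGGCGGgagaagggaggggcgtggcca
Eng: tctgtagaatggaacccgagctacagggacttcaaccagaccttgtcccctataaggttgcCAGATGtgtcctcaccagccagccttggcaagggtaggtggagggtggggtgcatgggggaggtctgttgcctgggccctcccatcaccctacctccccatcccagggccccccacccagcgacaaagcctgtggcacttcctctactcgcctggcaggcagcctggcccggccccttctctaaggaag
The Kit sequence stops where the GENCODE gene begins, so the last 71 of the 250 bases searched before the RefSeq start are not shown. In those 250 bases Kit held 1 GC box, 98 bases before the RefSeq start and 27 before the printed end, and Eng held 1 E-box, 189 bases upstream. Of 32851 mouse promoters of that length, 32.7% held a GC box, 66.2% an E-box, 53.6% GATA and 12.4% a TATA box. The 250 bases were 70.8% G or C at Kit and 62.4% at Eng, against a median of 52.4% over all promoters. So the 2 genes that moved together shared none of the 4 motifs in these windows. Ly6c1 held 3 E-boxes and 1 TATA box, and Cd34 held 1 GATA.

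Untreated Sca1 cells had less Kit and Eng RNA and more Thy1 RNA than the stem cells, while Ly6a, the gene of the sort marker, did not pass the test. Of the 6 genes tested, Kit and Eng fell, Thy1 rose, and Ly6a, Ly6e and Cd34 did not pass. These 3 calls of 6 stand beside 35.5% of all 13966 genes tested in untreated Sca1 against mESC. The test throughout was edgeR's quasi-likelihood F test with Benjamini-Hochberg adjustment, and a gene was called at an adjusted p of at most 0.05. Ly6c1 did not pass the filter on low counts and is given by its counts. In bulk RNA, fewer cells of a type and less RNA per cell cannot be told apart.

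With Set7 knocked down, 0 of the 6 genes were called against NTC, beside 14.3% of all genes tested. At an unadjusted p under 0.05 there were 3 (Ly6a, Ly6e and Kit), for which the share over all genes was not computed. DESeq2 called 0 of the 6, beside 1275 genes in all. A fit of those 4 libraries alone, which takes the spread from these 2 groups only, called 32.7% of all genes and 3 of the 6: Ly6a and Ly6e higher and Kit lower in knock-down cells. The non-target construct itself went with 1 call of 6 in NTC against untreated Sca1, a higher Kit level, beside 4.99% of all genes. For the remaining pairs of groups, 0 of the 6 were called in knock-down against untreated Sca1, where 17.2% of all genes were, 4 of the 6 in NTC against mESC (35.1% of all genes), and 3 of the 6 in knock-down against mESC (25.9% of all genes).

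**Figure D1:**
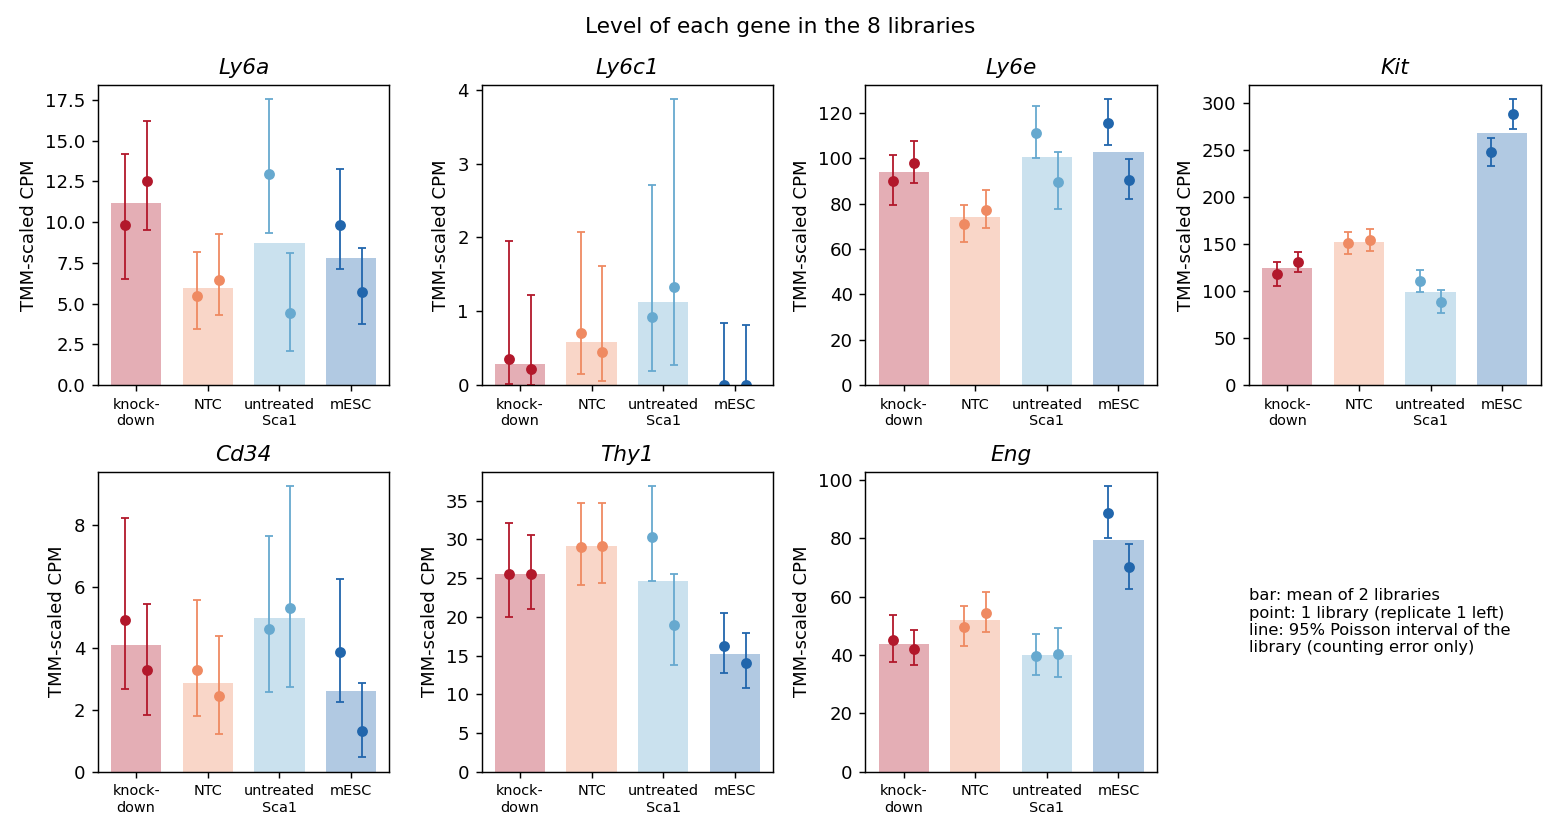
Level of each of the 7 genes in the 8 libraries, in TMM-scaled CPM on the vertical axis, with the groups on the horizontal axis. Bars are means of 2 libraries, points are libraries and lines are 95% Poisson intervals of each library, which cover counting error only. Kit and Eng are highest in both mESC libraries, Thy1 is lowest there, and the 2 untreated Sca1 libraries are far apart for Ly6a.

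Ly6a lies on chromosome 15 at 74994877 to 74998031 on the minus strand (GENCODE vM21, GRCm38), and 1 RefSeq row, NM_010738, counted it. It had 9.81 and 12.5 CPM in knock-down cells, 5.44 and 6.46 CPM in NTC, 13.0 and 4.42 CPM in untreated Sca1, and 9.85 and 5.72 CPM in mESC. The counts behind these levels were small: 28 and 57 in knock-down cells, 23 and 29 in NTC, 42 and 10 in untreated Sca1, and 43 and 26 in mESC. The 2 untreated Sca1 libraries were the highest and the lowest of all 8, and their 95% Poisson intervals, 9.35 to 17.5 CPM and 2.12 to 8.12 CPM, did not overlap.

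Against mESC, Ly6a in untreated Sca1 cells differed by a log2 fold change of 0.24 ± 0.39 (SE; edgeR adjusted p = 0.671), and the libraries of the 2 groups overlapped. Within the libraries of 1 code the difference was 0.38 and within those of the other it was -0.34, so its sign depended on the pair. In both groups the library with the large ribosomal share had the lower Ly6a level, and the part of that share in the Ly6a values was not tested. Leaving out the first untreated Sca1 library gave -0.81, and leaving out the second mESC library gave -0.08. Ly6a RNA was thus not detectably higher in cells sorted by the protein it encodes than in the unsorted stem cells, at a depth of 10 to 57 counts per library.

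Between knock-down and NTC cells, Ly6a averaged 11.2 ± 1.93 CPM and 5.95 ± 0.727 CPM (SD, n = 2 each), and both knock-down libraries lay above both NTC libraries. The log2 fold change of 0.92 ± 0.38 did not pass (edgeR adjusted p = 0.126), and it was 0.79 and 0.90 within the 2 codes. It passed in 3 alternatives: the fit of the 4 libraries alone (0.94, adjusted p = 0.00373), no filter on low counts (0.92, adjusted p = 0.0246), and the shared number as a block (0.91, adjusted p = 0.0334). Ly6a RNA in knock-down cells was not detectably different from that in untreated Sca1 cells (0.30 ± 0.38, adjusted p = 0.650) or mESC (0.54 ± 0.37, adjusted p = 0.307).

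Ly6a and Ly6e lie near each other on chromosome 15, and that whole chromosome was shifted in knock-down cells. Over its 425 genes of at least 10 CPM, the median log2 fold change of knock-down over NTC was 0.41, the highest of 20 chromosomes, with 171 genes called higher and 20 lower. The medians of the other 19 chromosomes lay between -0.16 and 0.05. Chromosome 15 was shifted likewise in knock-down against untreated Sca1 (0.36) and against mESC (0.48), but by 0.08 in untreated Sca1 against mESC and by -0.05 in NTC against untreated Sca1. Setting each chromosome's median to 0 left Ly6a at 0.52 ± 0.37 (adjusted p = 0.417) and turned Ly6e to -0.06 ± 0.13 (adjusted p = 0.822) in knock-down against NTC. It also brought Ly6e past the threshold in knock-down against untreated Sca1 (-0.46, adjusted p = 0.0281) and against mESC (-0.59, adjusted p = 0.00329). Why the chromosome shifted was not tested.

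**Figure D2:**
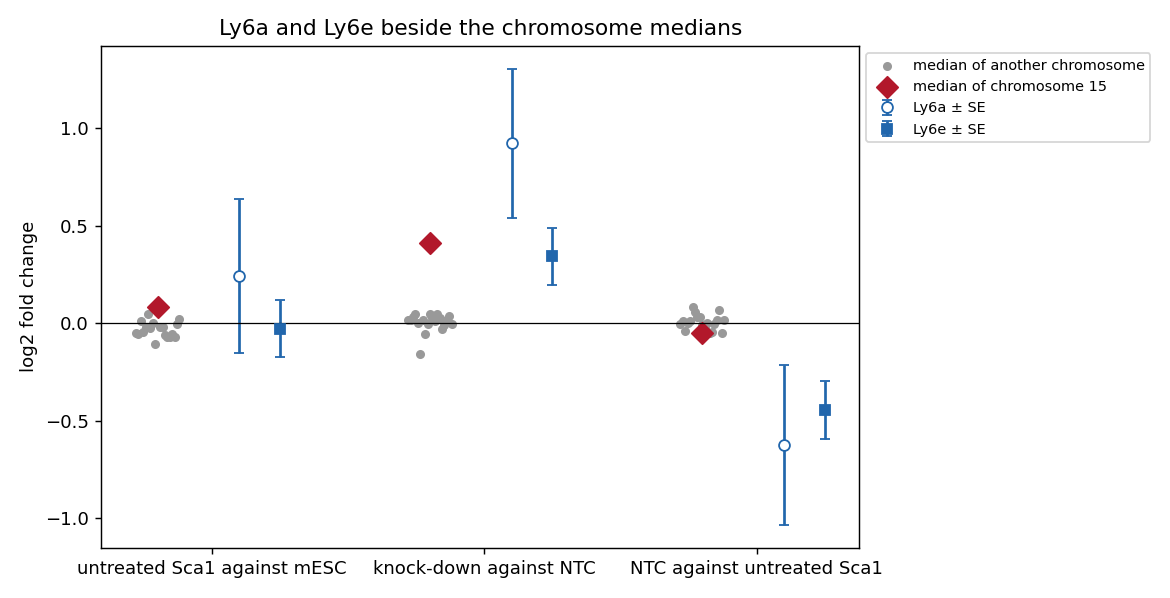
Log2 fold changes in the 3 main comparisons, with each grey point the median of 1 chromosome, the diamond the median of chromosome 15, and the open circle and the square Ly6a and Ly6e with their SE. In knock-down against NTC the diamond stands at 0.41, apart from the other chromosomes, and Ly6e at 0.34 lies close to it.

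Ly6e, a widely expressed Ly6 protein known for its effects on virus entry, lies on chromosome 15 at 74955051 to 74959905 on the plus strand, and its 6 RefSeq rows carried identical counts. It had 90.0 and 98.0 CPM in knock-down cells, 71.1 and 77.3 CPM in NTC, 111 and 89.7 CPM in untreated Sca1, and 116 and 90.5 CPM in mESC. The 2 NTC libraries were the lowest of the 8, and the other 3 groups overlapped one another. Per kilobase of transcript, Ly6e averaged 41.2 CPM in knock-down cells, 32.5 in NTC, 44.0 in untreated Sca1 and 45.2 in mESC, while Ly6a averaged 11.7 CPM per kilobase in knock-down cells, 6.23 in NTC, 9.11 in untreated Sca1 and 8.15 in mESC. Ly6e was thus the more abundant of the 2 transcripts in every group.

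Untreated Sca1 cells and mESC could not be separated by Ly6e (log2 fold change -0.03 ± 0.15, edgeR adjusted p = 0.905). Against NTC, knock-down cells differed by 0.34 ± 0.15 (adjusted p = 0.138), a size below the chromosome's own median. That difference passed in the fit of the 4 libraries alone (adjusted p = 0.00307), with the block (adjusted p = 0.0356) and without mESC library 1 or 2 (adjusted p = 0.0440 and 0.0439). NTC differed from untreated Sca1 by -0.44 ± 0.15 (adjusted p = 0.0969), and the difference passed in the fit of those 4 libraries alone (adjusted p = 0.0387), with the shared number as a block (adjusted p = 0.0172) and without mESC library 1 or 2 (adjusted p = 0.0203 and 0.0201). Ly6e fell in NTC against mESC, by 0.47 ± 0.14 on the log2 scale (adjusted p = 0.0169). That call was lost with library totals as the scale (adjusted p = 0.194), without mESC library 1 (-0.28, adjusted p = 0.123), without NTC library 1 (adjusted p = 0.160) and without NTC library 2 (adjusted p = 0.0664).

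Ly6c1, a marker of blood monocytes and of some endothelium, lies on chromosome 15 at 75044018 to 75048830 on the minus strand. Its 5 RefSeq rows held 2 different sets of counts, and the row used gave 13 counts in all 8 libraries. They were 1 and 1 in knock-down cells, 3 and 2 in NTC, 3 and 3 in untreated Sca1, and 0 and 0 in mESC. The rows with fewer counts held 4 each: 0 and 0 in knock-down cells, 1 and 2 in NTC, 0 and 1 in untreated Sca1, and 0 and 0 in mESC. In the row used, counts were seen in all 6 libraries of Sca1 cells and in neither mESC library, where 0 counts over the group allow up to 0.337 CPM. Set against that floor of 3 counts, the 6 counts in untreated Sca1 made Ly6c1 at least 3.24-fold higher than in mESC. That figure leaves out the counting error of the 6 counts, and the 95% counting interval of the ratio began at 1.91. The ratio of knock-down to NTC was 0.471, with a 95% counting interval of 0.0448 to 2.88.

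The Ly6 genes share sequence, which bears on how far these few reads can be assigned. Of the 36-base windows of Ly6a transcripts, 18.37% also occurred in transcripts of other genes, chiefly Ly6c1, Ly6i and Ly6c2, and for Ly6c1 the share was 51.17%, chiefly with Ly6c2. For Ly6e it was 0.45%. How the authors assigned reads that fit several genes is not given in the sources used here, so Ly6a and Ly6c1 counts are uncertain to that extent.

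Few genes of the wider Ly6 family were detected well enough to test. Of 40 genes listed, 37 were matched in the table, 11 passed the filter, 8 had no count in any library and 8 had 1 to 10 counts in all. On chromosome 15, Ly6a and Ly6e were the 2 that passed of 17. In untreated Sca1 against mESC, 4 of the 11 rose and 2 fell (54.5%, beside 35.5% of all genes), with a median log2 fold change of -0.03. Over all genes the median was -0.01 in that comparison, -0.00018 in knock-down against NTC and 0.01 in NTC against untreated Sca1. Whether the share of any gene list called here differs from that of all genes was not tested. Of the 11, Ly6g6e fell to 7.66 ± 1.66 CPM in untreated Sca1, against 34.5 ± 5.88 CPM in mESC (log2 fold change -2.20 ± 0.30, edgeR adjusted p = 1.78e-05), and Lypd6, a regulator of Wnt receptors, rose by 1.95 ± 0.35 (adjusted p = 0.000327). Lypd6b averaged 5.68 CPM in untreated Sca1 and 0.110 CPM in mESC.

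With Set7 knocked down, 1 of the 11 was called against NTC (9.09%, beside 14.3% of all genes), with a median of -0.26: Bambi, better known as a TGF-beta pseudoreceptor, averaged 9.98 CPM in knock-down cells and 22.4 CPM in NTC (-1.17 ± 0.24, adjusted p = 0.00240), a call lost without knock-down library 2 (adjusted p = 0.0834). Plaur, the urokinase receptor, was the 1 called in NTC against untreated Sca1 (9.09%, beside 4.99% of all genes), with 40.9 CPM in NTC and 20.5 CPM in untreated Sca1 (0.97 ± 0.19, adjusted p = 0.00717). That call was lost without untreated Sca1 library 2 or either NTC library (adjusted p = 0.0616 to 0.102).

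Kit had the most reads of the 7 genes, 5206 counts in all. It lies on chromosome 5 at 75574916 to 75656722 on the plus strand, downstream of the sequence printed above, and its 2 RefSeq rows were identical. It had 118 and 130 CPM in knock-down cells, 151 and 154 CPM in NTC, 110 and 87.9 CPM in untreated Sca1, and 248 and 288 CPM in mESC. Both mESC libraries lay above all 6 Sca1 libraries, the NTC libraries came next, and each group was separate from every other.

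Kit fell in untreated Sca1 against mESC, by 1.43 ± 0.13 on the log2 scale (edgeR adjusted p = 2.47e-07), with -1.16 and -1.71 within the 2 codes. It was also lower than in mESC in NTC (-0.81 ± 0.13, adjusted p = 7.10e-05) and in knock-down cells (-1.11 ± 0.13, adjusted p = 6.14e-06). These 3 contrasts share the mESC libraries.

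Kit was higher in NTC than in untreated Sca1 by 0.61 ± 0.13 (adjusted p = 0.0142), although neither group had a Set7 construct. The call was lost without untreated Sca1 library 2 (adjusted p = 0.113), NTC library 1 (adjusted p = 0.149) or NTC library 2 (adjusted p = 0.144), and the difference was 0.48 within the 1 code the groups share. Knock-down cells lay between NTC and untreated Sca1, at -0.29 ± 0.13 from NTC (adjusted p = 0.157) and 0.32 ± 0.14 from untreated Sca1 (adjusted p = 0.120), which passed without untreated Sca1 library 1 (0.50, adjusted p = 0.0478). In the fit of knock-down and NTC alone, Kit was called lower in knock-down cells (-0.28, adjusted p = 0.00520).

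The gene of its ligand, Kitl, which encodes stem cell factor, moved the other way between stem cells and Sca1 cells. Kitl had 6.30 and 6.15 CPM in knock-down cells, 13.7 and 15.4 CPM in NTC, 13.0 and 15.02 CPM in untreated Sca1, and 2.06 and 3.08 CPM in mESC. It rose in untreated Sca1 against mESC (2.42 ± 0.33, adjusted p = 1.82e-05) and fell in knock-down against NTC, by 1.22 ± 0.28 (adjusted p = 0.00567). The knock-down call was lost without either knock-down library or NTC library 2 (adjusted p = 0.0568 to 0.108). Between NTC and untreated Sca1, Kitl did not differ detectably (0.07 ± 0.26).

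Of 22 tested genes of KIT signalling, Kit among them, 7 rose and 5 fell in untreated Sca1 against mESC (54.5%, beside 35.5% of all genes), with a median log2 fold change of 0.07. Mitf, a transcription factor downstream of KIT in melanocytes and mast cells, fell to 3.73 ± 2.15 CPM, against 33.2 ± 5.89 CPM in mESC (-3.06 ± 0.32, adjusted p = 8.02e-07), and Lmo2, a partner of blood transcription factors, rose to 17.7 ± 5.61 CPM, against 1.45 ± 0.435 CPM in mESC (3.60 ± 0.37, adjusted p = 6.10e-07). Knock-down cells had 3 of the 22 lower than NTC and 0 higher (13.6%, near the 14.3% of all genes), with a median of -0.32. They were Kitl, Gata2, a transcription factor of blood progenitors (-1.12 ± 0.26, adjusted p = 0.00738), and Ptpn6, a phosphatase that acts on KIT (-0.62 ± 0.19, adjusted p = 0.0401). Gata2 was lost without either knock-down library or NTC library 2 (adjusted p = 0.0657 to 0.156), and Ptpn6 under DESeq2 (adjusted p = 0.130), with library totals (adjusted p = 0.0912), with the chromosome offset (-0.46, adjusted p = 0.145) and without any of the 4 libraries compared (adjusted p = 0.123 to 0.281). Kit was the 1 called of the 22 in NTC against untreated Sca1 (4.55%, beside 4.99% of all genes).

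Eng had the same order of groups as Kit. It lies on chromosome 2 at 32646595 to 32682669 on the plus strand, and its 3 RefSeq rows were identical. Its exons overlap those of Fpgs on the opposite strand, with which it shared 0.77% of its 36-base windows. Eng had 45.2 and 42.2 CPM in knock-down cells, 49.6 and 54.4 CPM in NTC, 39.6 and 40.2 CPM in untreated Sca1, and 88.6 and 69.99 CPM in mESC. No 2 groups overlapped, and both mESC libraries were above the other 6. No group of Sca1 cells differed from another past the threshold. How often the groups of all genes separate in this way was not computed, here or for the other members.

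Eng fell in untreated Sca1 against mESC, by 0.99 ± 0.16 on the log2 scale (edgeR adjusted p = 0.000102), a level 0.503 times that of mESC, with -1.15 and -0.79 within the 2 codes. It was lower than in mESC in NTC (-0.61 ± 0.15, adjusted p = 0.00368) and in knock-down cells (-0.86 ± 0.15, adjusted p = 0.000403). The NTC call was lost with library totals as the scale (adjusted p = 0.0533) and without NTC library 1 (adjusted p = 0.0737). Against NTC, knock-down cells differed by -0.26 ± 0.16 (adjusted p = 0.323), and NTC differed from untreated Sca1 by 0.38 ± 0.16 (adjusted p = 0.192). Over the 8 libraries Kit and Eng correlated at r = 0.92 on the log2 scale, a description of 8 points in 4 groups in which the 2 mESC libraries stand apart.

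**Figure D3:**
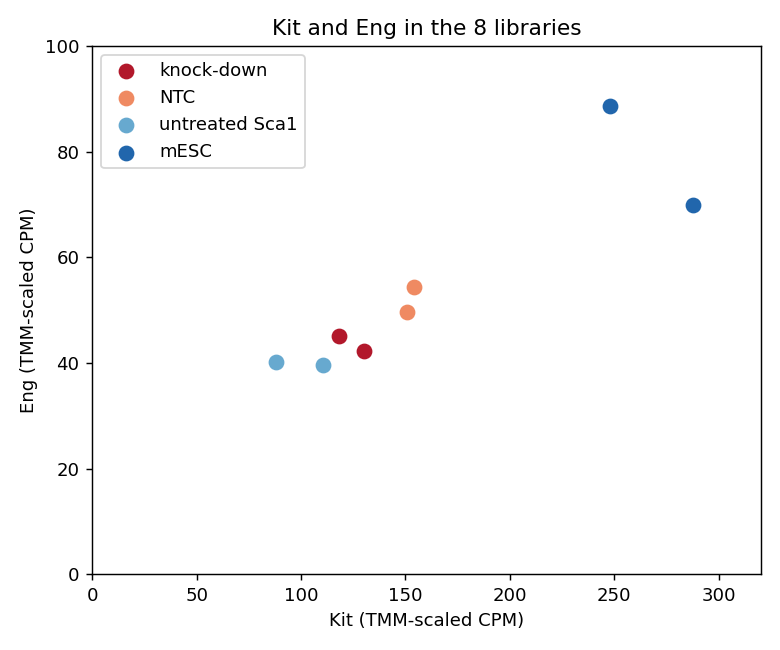
Eng against Kit in the 8 libraries, both in TMM-scaled CPM, with each point 1 library coloured by group. The mESC libraries lie at 248 and 288 CPM of Kit and 88.6 and 69.99 CPM of Eng, apart from the 6 libraries of Sca1 cells.

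The genes around endoglin in its receptor complex were set beside Eng. Of 18 tested ligands, receptors, SMAD proteins and targets, 7 rose and 1, Eng itself, fell in untreated Sca1 against mESC (44.4%, beside 35.5% of all genes), with a median log2 fold change of 0.36. Smad3, the intracellular effector of TGF-beta receptors, rose by 1.91 ± 0.19 (adjusted p = 4.51e-07), and Mmp14, a membrane protease that sheds endoglin from the cell surface, rose by 2.03 ± 0.18 (adjusted p = 1.03e-07). Of the same 18, 8 fell and 0 rose in knock-down against NTC (44.4%, beside 14.3% of all genes), with a median of -0.43. Mmp14 fell to 22.6 ± 1.21 CPM in knock-down cells, against 88.1 ± 9.49 CPM in NTC (-1.97 ± 0.16, adjusted p = 9.34e-08). Tgfb3, a TGF-beta ligand, fell to 1.18 ± 0.19 CPM, against 6.75 ± 0.856 CPM in NTC (-2.45 ± 0.47, adjusted p = 0.00152), and Id1, a target of BMP receptors, fell by 0.99 ± 0.18 (adjusted p = 0.00107), a call lost without knock-down library 2 (adjusted p = 0.0598). Mmp14 was also the 1 called in NTC against untreated Sca1 (0.71 ± 0.15, adjusted p = 0.0116), lost without untreated Sca1 library 2 or either NTC library (adjusted p = 0.0562 to 0.246).

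Thy1 was the 1 gene of the 6 that rose in untreated Sca1 against mESC. It lies on chromosome 9 at 44043384 to 44048579 on the plus strand and had 1 RefSeq row, with no 36-base window found in another gene. Thy1 had 25.6 and 25.5 CPM in knock-down cells, 29.1 and 29.2 CPM in NTC, 30.3 and 19.0 CPM in untreated Sca1, and 16.3 and 14.1 CPM in mESC. Both mESC libraries were below all 6 Sca1 libraries, and the 2 untreated Sca1 libraries spanned the whole range of the other Sca1 cells.

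In untreated Sca1 against mESC, Thy1 rose by 0.73 ± 0.22 on the log2 scale (edgeR adjusted p = 0.0169), with 0.88 and 0.42 within the 2 codes. The call was lost under DESeq2 (adjusted p = 0.0582), in the fit of those 4 libraries alone (adjusted p = 0.0625), without mESC library 2 (adjusted p = 0.0663) and without untreated Sca1 library 1 (0.33, adjusted p = 0.373). Thy1 was also higher than in mESC in NTC (0.94 ± 0.21, adjusted p = 0.00190) and in knock-down cells (0.75 ± 0.22, adjusted p = 0.0157), contrasts that share the mESC libraries. The knock-down call was lost under DESeq2 (adjusted p = 0.0551), with the shared number as a block (adjusted p = 0.0908), and without mESC library 2, knock-down library 1 or knock-down library 2 (adjusted p = 0.0653, 0.0821 and 0.111). Knock-down and NTC cells differed in Thy1 by -0.19 ± 0.20 (adjusted p = 0.607).

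Integrins that bind Thy1 were listed with genes of lipid rafts, where GPI-anchored proteins gather. Of 14 tested, Thy1 among them, 5 fell and 0 rose in knock-down against NTC (35.7%, beside 14.3% of all genes), with a median log2 fold change of -0.29. Itgb1, the common beta-1 integrin chain, fell to 262 ± 14.6 CPM in knock-down cells, against 676 ± 2.85 CPM in NTC (-1.36 ± 0.13, adjusted p = 4.89e-07). Itgav, the alpha-V chain, fell by 1.58 ± 0.15 (adjusted p = 8.57e-07), and Cavin1, a coat protein of caveolae, fell by 1.03 ± 0.17 (adjusted p = 0.000492). Whether these changes differ from that of Thy1 was not tested.

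In untreated Sca1 against mESC, 5 of the 14 rose and 2 fell (50.0%, beside 35.5% of all genes), with a median of 0.27. Fyn, a kinase of rafts, rose by 0.76 ± 0.19 (adjusted p = 0.00444), and Itga5, the fibronectin receptor alpha chain, fell by 0.63 ± 0.13 (adjusted p = 0.00116). Cav1, caveolin 1, averaged 4.92 ± 1.34 CPM in untreated Sca1 and had no count in mESC. In NTC against untreated Sca1, 3 of the 14 rose (28.6% called in all, beside 4.99% of all genes), and Cavin1, named after its value was seen, fell by 0.69 ± 0.16 (adjusted p = 0.0179). Those that rose were Itgav (0.82 ± 0.15, adjusted p = 0.00420), Itga5 (0.72 ± 0.13, adjusted p = 0.00460) and Itgb1 (0.73 ± 0.13, adjusted p = 0.00286), and each was lost without either NTC library (adjusted p = 0.0571 to 0.0788).

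Ly6a, Ly6c1, Ly6e and Thy1 proteins carry a GPI anchor, and the enzymes that build and attach it formed a further list. Of 28 tested, 11 fell and 0 rose in untreated Sca1 against mESC (39.3%, near the 35.5% of all genes), with a median log2 fold change of -0.37. Pigb, a mannosyltransferase, fell by 1.25 ± 0.24 (adjusted p = 0.000582). Pigt and Gpaa1, subunits of the transamidase that joins anchor to protein, fell by 0.85 ± 0.13 (adjusted p = 5.17e-05) and by 0.66 ± 0.13 (adjusted p = 0.000627). In knock-down against NTC, 0 of the 28 were called, beside 14.3% of all genes, with a median of -0.12. In NTC against untreated Sca1, 4 rose and 0 fell (14.3%, beside 4.99% of all genes), with a median of 0.27, and Pigo, which adds ethanolamine phosphate to the anchor, had the smallest p (0.92 ± 0.14, adjusted p = 0.00126), although without NTC library 1 it did not pass (adjusted p = 0.0544).

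Cd34 was close to the limit of these libraries. It lies on chromosome 1 at 194938819 to 194961279 on the plus strand, its 2 RefSeq rows were identical, and 4.61% of its 36-base windows were shared with Gm16897 on the opposite strand. Its counts were 14 and 15 in knock-down cells, 14 and 11 in NTC, 15 and 12 in untreated Sca1, and 17 and 6 in mESC. Scaled, they were 4.90 and 3.30 CPM in knock-down cells, 3.31 and 2.45 CPM in NTC, 4.64 and 5.30 CPM in untreated Sca1, and 3.89 and 1.32 CPM in mESC. Cd34 in untreated Sca1 lay above both mESC libraries, while the knock-down and NTC libraries overlapped.

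None of the 6 pairs of groups differed in Cd34 past the threshold. In untreated Sca1 against mESC the log2 fold change was 0.92 ± 0.50 (edgeR adjusted p = 0.162), with 0.22 and 1.66 within the 2 codes, and without mESC library 1 it was 1.87 (adjusted p = 0.0206). In knock-down against NTC it was 0.46 ± 0.48 (adjusted p = 0.60), and in NTC against untreated Sca1 it was -0.77 ± 0.49 (adjusted p = 0.40). With 6 to 17 counts per library, differences of these sizes were not detectable.

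A relative of Cd34 that was read deeply is Podxl, podocalyxin, a sialomucin of the same family. Podxl had 152 and 158 CPM in knock-down cells, 381 and 393 CPM in NTC, 228 and 196 CPM in untreated Sca1, and 179 and 180 CPM in mESC. It fell in knock-down against NTC, by 1.32 ± 0.12 on the log2 scale (adjusted p = 2.54e-07), and rose in NTC against untreated Sca1 (0.87 ± 0.12, adjusted p = 0.000387). So the level of Podxl in NTC stood above those of the other 3 groups. Podxl2, a second relative, averaged 1.05 CPM in knock-down cells and 4.03 CPM in NTC (-1.72 ± 0.55, adjusted p = 0.0453), a call lost under DESeq2 (adjusted p = 0.252), with library totals, summed transcripts or the chromosome offset (adjusted p = 0.0575, 0.0663 and 0.0770), without any of the 4 libraries compared (adjusted p = 0.0641 to 0.314) and without untreated Sca1 library 1 or 2 (adjusted p = 0.0520 and 0.0519). Of the 6 family members and partners tested, these 2 fell with the knock-down (33.3%, beside 14.3% of all genes). In untreated Sca1 against mESC 0 were called, beside 35.5% of all genes. Podxl was the 1 called of the 6 in NTC against untreated Sca1 (16.7%, beside 4.99% of all genes).

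**Figure D4:**
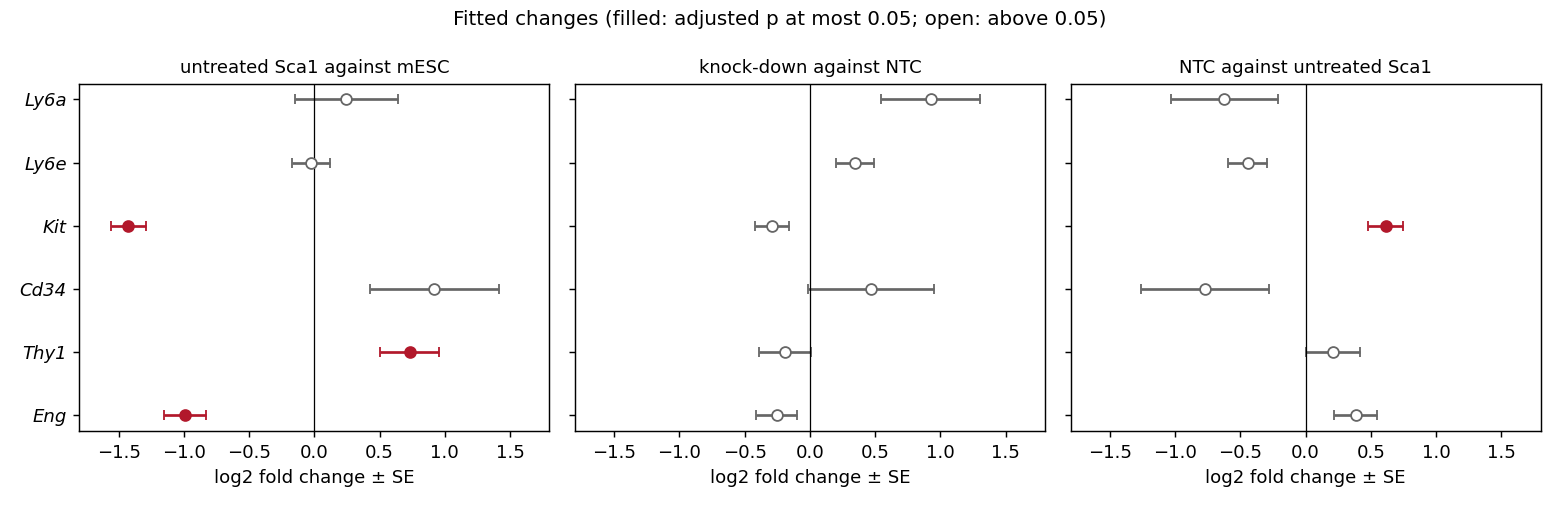
Log2 fold change with its SE for each of the 6 genes tested, in 3 panels: untreated Sca1 against mESC on the left, knock-down against NTC in the middle, and NTC against untreated Sca1 on the right. Filled points passed an adjusted p of 0.05. Kit and Eng lie left of 0 and Thy1 right of it in the first panel, no point is filled in the second, and Kit alone is filled in the third.

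Ordered by mean level, Ly6a ran from knock-down (11.2 CPM) through untreated Sca1 (8.70) and mESC (7.78) to NTC (5.95), and no pair of groups differed past the threshold. Ly6e ran from mESC (103 CPM) through untreated Sca1 (100.5) and knock-down (94.0) to NTC (74.2), where only mESC and NTC differed past it. Kit ran from mESC (268 CPM) through NTC (152.5) and knock-down (124) to untreated Sca1 (99.1), and of neighbours only mESC and NTC differed past it. Eng had the same order, mESC (79.3 CPM), NTC (52.0), knock-down (43.7) and untreated Sca1 (39.9), with again only mESC and NTC past it among neighbours.

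Thy1 ran from NTC (29.1 CPM) through knock-down (25.5) and untreated Sca1 (24.6) to mESC (15.2), and the last step was the 1 past the threshold. Cd34 ran from untreated Sca1 (4.97 CPM) through knock-down (4.10) and NTC (2.88) to mESC (2.61), with no pair past it. Per kilobase of GENCODE transcript, Kit was highest of the 7 in mESC (51.4 CPM per kilobase), and Ly6e was highest in knock-down cells, NTC and untreated Sca1. Cd34 (1.02 to 1.95 CPM per kilobase) and Ly6c1 (at most 1.33) were the 2 lowest in each group.

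The pattern of each gene was set beside those of 11860 genes of at least 5 CPM on the log2 scale over the 8 libraries, and the nearest 3 are named by Pearson's r as a description. Kit was most like Adgre5 (0.997), Srsf5 (0.991) and 1700030C10Rik (0.988), and Eng was most like Tyro3 (0.983), Ephx1 (0.976) and Syngr2 (0.963). Thy1 was most like Gorasp1 (0.981), Ampd2 (0.977) and Jrk (0.972). Ly6a was most like Chmp2a (0.981), Gm16973 (0.963) and Rbm7 (0.947), Ly6e was most like Dnajc8 (0.982), Utp6 (0.973) and Pdf (0.971), and Cd34 was most like Kdm1a (0.988), Ubb (0.980) and Hnrnpa0 (0.976). With 8 points and so many genes, high values of r are reached by many. Among the 7 themselves, Ly6a and Ly6e correlated at 0.68, Kit and Thy1 at -0.61, and Ly6a and Kit at -0.06.

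Markers of other cell types moved with the groups. A list of 10 pluripotency genes summed to 3136 to 3353 CPM in knock-down cells, 2443 to 2526 CPM in NTC, 2343 to 2673 CPM in untreated Sca1 and 3723 to 4103 CPM in mESC, with all 10 detected in every library. Untreated Sca1 cells had 7 of the 10 called lower than mESC and 0 higher, beside 35.5% of all genes called. The median log2 fold change of the 10 was -0.57. In knock-down against NTC, 2 of the 10 were called higher and 0 lower, beside 14.3% of all genes, with a median of 0.33. Pou5f1 and Nanog, which define the pluripotent state, were not among the 7 and did not differ past the threshold between untreated Sca1 and mESC (-0.13 ± 0.15 and -0.06 ± 0.12). Kit and Eng, which were highest in mESC, moved with the sum in that comparison. In knock-down against NTC they did not: the sum was higher in knock-down cells, where both genes had lower values (-0.29 and -0.26, neither called). The part of undifferentiated cells in their levels was not tested. Smooth muscle markers summed to 267 to 285 CPM in knock-down cells and 862 to 894 CPM in NTC. They summed to 936 to 1355 CPM in untreated Sca1 and 75.5 to 83.8 CPM in mESC, where Thy1 was also lowest. In knock-down against NTC, 7 of the 9 markers tested were called lower (77.8%, beside 14.3% of all genes), with a median of -1.38. Thy1 was not called there (-0.19).

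Endothelial markers, 10 genes, summed to 119 to 135 CPM in knock-down cells, 105 to 112 CPM in NTC, 53.5 to 59.3 CPM in untreated Sca1 and 192 to 209 CPM in mESC. Pecam1, which stem cells also express, gave most of that sum, with 44.4 CPM in untreated Sca1 and 163 CPM in mESC, while Cdh5, which defines endothelium, averaged 1.44 CPM in untreated Sca1 and 3.71 CPM in mESC. Kit and Eng are genes of endothelium too and, like that sum, were lowest in untreated Sca1 and highest in mESC. In knock-down against NTC that sum was higher in knock-down cells, although 0 of the 7 markers tested were called, beside 14.3% of all genes. Pecam1 averaged 96.7 CPM in knock-down cells and 83.6 CPM in NTC (log2 fold change 0.22, not called). Kit and Eng had lower values in knock-down cells (-0.29 and -0.26, neither called). Cdh5 averaged 0.900 CPM in knock-down cells and 1.59 CPM in NTC. The part of such cells in the levels of Kit and Eng was not tested. Blood markers summed to between 9.27 and 15.1 CPM in all libraries, and Ptprc, which defines blood cells, had no count in untreated Sca1 or mESC. Markers of fibroblasts and mesenchyme summed to 1548 to 1819 CPM in knock-down cells, 4389 to 4616 CPM in NTC, 2048 to 2107 CPM in untreated Sca1 and 1624 to 1911 CPM in mESC. Fn1, fibronectin, gave most of the mESC sum, with 1199.8 CPM in untreated Sca1 and 1541.5 CPM in mESC. Of the 9 tested markers, 7 rose and 2, Fn1 and Pdgfra, fell in untreated Sca1 against mESC, beside 35.5% of all genes called. Their median log2 fold change of 6.95 was the value of Dcn. Dcn and Postn had no count in mESC, so the size of their changes, and of this median, is not a measured ratio. Col1a2, with 1.46 CPM in mESC, rose by 6.95. Col3a1, a fibrillar collagen, averaged 251 CPM in untreated Sca1 and 0.225 CPM in mESC. All 9 tested fell in knock-down against NTC, beside 14.3% of all genes called. The median of -3.52 was again that of Dcn, at 0.285 CPM in knock-down cells, where Postn had no count. The size of that median is therefore uncertain. Col1a2, with 25.7 CPM in knock-down cells and 297 CPM in NTC, had a log2 fold change of -3.53. Thy1, a marker of such cells, averaged 25.5 CPM in knock-down cells and 29.1 CPM in NTC.

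Of 25 other progenitor surface genes tested, 12 rose and 8 fell in untreated Sca1 against mESC (80.0%, beside 35.5% of all genes), with a median log2 fold change of 0.57. Prom1, the marker CD133, rose to 38.1 ± 12.4 CPM, against 2.69 ± 0.560 CPM in mESC (3.78 ± 0.30, adjusted p = 3.30e-08), and Cd24a rose by 2.82 ± 0.18 (adjusted p = 2.92e-09). Mcam, the marker CD146, fell to 39.0 ± 2.60 CPM, against 160 ± 5.53 CPM in mESC (-2.03 ± 0.14, adjusted p = 5.16e-09).

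Of these 25 genes, 12 fell and 1 rose in knock-down against NTC (52.0%, beside 14.3% of all genes), with a median of -0.62. Flt1, a VEGF receptor, fell to 16.7 ± 1.85 CPM in knock-down cells, against 127 ± 9.0 CPM in NTC (-2.91 ± 0.19, adjusted p = 8.35e-09), and Mcam fell to 27.4 ± 1.63 CPM, against 94.1 ± 6.00 CPM in NTC (-1.77 ± 0.14, adjusted p = 6.63e-08). The 1 that rose, named after its value was seen, was Nt5e, the marker CD73 (0.87 ± 0.20, adjusted p = 0.00707). In NTC against untreated Sca1, 8 rose and 0 fell (32.0%, beside 4.99% of all genes), with a median of 0.16. Mcam rose by 1.26 ± 0.14 (adjusted p = 9.34e-05), Pdgfra, a receptor of mesenchyme, by 1.00 ± 0.12 (adjusted p = 0.000137) and Flt1 by 1.14 ± 0.17 (adjusted p = 0.00108).

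Interferons raise Ly6a and Ly6e in other mouse cells, so 20 genes of that response were set beside them. Of the 20, 3 rose and 5 fell in knock-down against NTC (40.0%, beside 14.3% of all genes), with a median log2 fold change of -0.24. Oas1a, an RNA sensor, rose (1.30 ± 0.32, adjusted p = 0.00934), while B2m, the light chain of MHC class I (-0.79 ± 0.20, adjusted p = 0.0144), and Ifnar2, an interferon receptor chain (-0.83 ± 0.22, adjusted p = 0.0139), fell. B2m and Ifnar2 were lost under DESeq2 (adjusted p = 0.0622 and 0.101), and each of the 3 was lost when some single libraries of the comparison were left out (adjusted p = 0.0602 to 0.310). In untreated Sca1 against mESC, 8 rose and 5 fell (65.0%, beside 35.5% of all genes), with a median of 0.18, among them Ddx58, an RNA sensor, which fell by 1.58 ± 0.16 (adjusted p = 8.63e-07), and Ifngr2, an interferon-gamma receptor chain, which rose by 1.26 ± 0.21 (adjusted p = 0.000166). Psmb8, an immunoproteasome subunit, averaged 5.52 ± 0.934 CPM in untreated Sca1 and had no count in mESC. Ifitm1 was the 1 called of the 20 in NTC against untreated Sca1, where 4.99% of all genes were (0.84 ± 0.20, adjusted p = 0.0203), lost without untreated Sca1 library 2, either NTC library or either knock-down library (adjusted p = 0.0565 to 0.213).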

How the data were processed

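Poly(A) RNA of 8 mouse libraries in 4 groups of 2 was sequenced on a Genome Analyzer IIx, per the labels' protocols. Tools listed by the submitters' processing notes, without their roles, were edgeR 0.19, BWA 0.5.9 and SAMtools 0.1.17. Not given in the sources used here: genome build, counter, annotation and strand setting. The deposited table holds the authors' whole-number read counts per RefSeq transcript, unscaled as judged from the values, and no column of another study.

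Transcripts were named from a RefSeq gene table (28985) or GENCODE vM21 metadata (173), and 456 had no symbol. Each of 23483 genes was represented by its row with the highest total, since 2062 of 3853 genes with several rows had identical rows. Gene totals ran from 2507938 to 5080266 counts. Intervals and floors cover counting error only.

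After filterByExpr and TMM scaling, counts were fitted in edgeR 4.0.16 (R 4.3.3) over all 8 libraries with 1 mean per group (common dispersion 0.0133, 4 residual degrees of freedom). P-values of edgeR's robust quasi-likelihood F test, adjusted by Benjamini-Hochberg over the 13966 genes tested, were called at 0.05. The SE is the log2 fold change divided by the root of the F statistic, and log2 CPM used a prior count of 2. The code was tested on simulated counts with known changes. Pairs with 1 code in the sample descriptions (12, 34 or 56, of unstated meaning) gave the within-code values. Alternatives were RLE factors, library totals, a filter at 5 CPM or none, DESeq2 1.42.0, the compared groups alone, a block by the LG number of the descriptions, summed transcripts, a chromosome offset, each library left out and, added after seeing the data, no ribosomal precursor row.

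The 7 genes, the gene lists and the tests were chosen with earlier results of these data known. Named genes were the 7, Setd7, up to 3 called genes with the smallest p per list and comparison, and the 3 genes most like each member. Kitl was added for its ligand role. Shared sequence was counted as 36-base windows of GENCODE transcripts found in another gene's transcripts.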

Additional observations from a re-analysis of the deposited data

How the results depend on the processing

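Of 642 alternative values of the 6 genes over all pairs of groups, 590 kept their direction and their side of the threshold, 16 newly passed it, 18 no longer passed and 18 changed sign; of 969 values of other named genes, 907 kept both, 60 no longer passed and 2 changed sign. The calls of Kit and Eng in untreated Sca1 against mESC held under every alternative run. The causes of the changes below were not tested.

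The 1998 genes called in knock-down against NTC became 1275 with DESeq2 and 4416 in the fit of the compared groups alone, and leaving out 1 library gave 648 to 2826. Of the 6 genes, 1 was called there with no filter, beside 2336 genes in all. In the compared groups alone 3 were called, beside 4416, and with the replicate block 2, beside 2826. In NTC against untreated Sca1, 697 genes were called; no filter gave 1148, the replicate block 1261, and leaving out 1 library 57 to 1517, while 2 of the 6 were called in the compared groups alone and with the block, and 0 to 2 with 1 library left out. In untreated Sca1 against mESC, leaving out 1 library gave 2 to 4 called of the 6. The fit of NTC and untreated Sca1 alone called 1007 genes in all. The replicate block pairs libraries only by a number in their descriptions. Deviations within a group of 2 mirror each other, so the 2 pairs of a comparison give 1 correlation. It was 0.26 in untreated Sca1 and mESC and 0.05 in knock-down and NTC. The main fit did not pair the samples by these numbers. The second libraries of untreated Sca1 and mESC also have a large ribosomal share in common, and whether the number marks a batch was not tested. The block brought Ly6a (adjusted p = 0.0334) and Ly6e (adjusted p = 0.0356) past the threshold in knock-down against NTC and Ly6e in NTC against untreated Sca1 (adjusted p = 0.0172).

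Signs changed for Ly6a, Ly6e, Cd34 and Thy1 among the 6. With the block, Thy1 turned to -0.16 in knock-down against untreated Sca1 and Cd34 to -0.37 in NTC against mESC. With the chromosome offset, Thy1 turned to -0.0076 and Ly6a to -0.045 in knock-down against untreated Sca1, and Ly6e to -0.064 in knock-down against NTC.
With 1 library left out, Ly6a spanned -0.81 to 0.75 in untreated Sca1 against mESC, -1.12 to 0.43 in NTC against untreated Sca1, -0.19 to 1.36 in knock-down against untreated Sca1 and -0.72 to 0.059 in NTC against mESC. Ly6e spanned -0.20 to 0.17 in untreated Sca1 against mESC, -0.24 to 0.075 in knock-down against untreated Sca1 and -0.29 to 0.062 in knock-down against mESC. Thy1 spanned -0.058 to 0.62 in NTC against untreated Sca1 and -0.25 to 0.43 in knock-down against untreated Sca1, Cd34 -0.44 to 1.10 in NTC against mESC, and Kitl -0.042 to 0.16 in NTC against untreated Sca1.
The filter at 5 CPM removed Cd34. Ly6c1 has no value in the main fit, and its value in the fit with no filter is not given here. With 2 libraries a group and 10 to 57 counts of Ly6a and 6 to 17 of Cd34 per library, counting error limits these 2 genes. Where a library is left out, the lone library of its group is assumed to vary like the other groups.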
